A study of Mus musculus with 4 samples.

Results

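The 10 genes described here are the Notch receptor genes Notch1, Notch2, Notch3 and Notch4, the ligand genes Jag1 and Jag2, the nuclear effector gene Rbpj, and the target genes Hes1, Hey1 and Nrarp. They were picked by gene symbol from the 23420 genes of the table, and all 10 were present. They were proposed with the EpiKO and WT values already known, so their differences between the groups are given as a description and carry no test. RNA was sequenced from CD11b+CD200R1+ myeloid cells, sorted by flow cytometry from orthotopic cutaneous squamous cell carcinomas (cSCCs), meaning skin tumours grown in their tissue of origin, in the FVB/N mouse strain. Of the 4 libraries, 2 came from wild-type (WT) tumours positive for CD200. EpiKO tumours, of the genotype K14Cre;CD200fl/fl, gave the other 2, and in them a Cre recombinase driven by the keratin 14 promoter removes Cd200 in epithelial cells. That promoter is active in epithelial cells, whereas the sorted cells are myeloid. The labels give no age, sex or number of animals per library, and do not say whether replicates came from separate mice.

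Notch signalling passes between touching cells. A ligand of the Jagged or Delta-like family on 1 cell binds a Notch receptor on its neighbour, and ADAM proteases and then gamma-secretase cut the receptor. The freed intracellular domain enters the nucleus, joins the DNA-binding protein RBPJ, and turns a repressor complex into an activator of genes such as Hes1, Hey1 and Nrarp. In monocytes, macrophages and dendritic cells the pathway is known for its part in cell fate and in inflammatory gene expression.

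Values are normalised read counts, meaning reads assigned to a gene divided by a size factor per library. Each library held between 15884132 and 21244158 assigned reads, and 1 read stood for a value of 0.841 to 1.16. Macrophage and monocyte markers were abundant in all 4 libraries, where the summed value of 10 markers lay between 558018 and 846398. Without overlap, 4 of the 10 were higher in EpiKO and 0 lower, against 23.3% and 23.8% of all tested genes. Cd200r1, the gene of 1 protein used for sorting, was at 318 and 293 in WT against 1101 and 612 in EpiKO. Cd200 itself had WT values of 92.7 and 59.7, and EpiKO values of 17.2 and 15.1, with EpiKO below WT in both libraries. Since the deletion is directed to the epithelium, these values from sorted myeloid cells were not used to check the labels. WT replicate 1 stood apart: the 13 keratinocyte markers summed to 5845 in it, 124 in WT replicate 2, 71.1 in EpiKO replicate 1 and 56.7 in EpiKO replicate 2. None of the 13 was at 0 in all libraries. In EpiKO, 5 of the 13 were lower without overlap and 0 higher, against 23.8% and 23.3% of all tested genes. Some of the 5 were too low to be among the tested genes. Fibroblast markers summed to between 23728 and 45628, neutrophil markers to between 775 and 2816, mast cell and basophil markers to between 41.6 and 299, dendritic cell markers to between 103 and 224, B cell markers to between 20.5 and 82.3, and lymphatic endothelial markers to between 986 and 3778, nearly all of it Pdpn, or 2.84 to 10.4 without that gene. The T and NK cell list summed to between 124 and 1808, most of it Cd4, and to between 23.7 and 53.9 without that gene. Among the 11 fibroblast markers, 1 was called higher in EpiKO (limma, adjusted p under 0.05, against 0.417% of all tested genes) and 0 lower. In that list 2 were higher and 2 lower without overlap, and 1 of the lower ones was under 10 in every library. Of the neutrophil list, Csf3r alone was at 514 to 1323, and of the B cell list, Cd79b alone was at 19.4 to 76.5. In bulk samples, fewer cells of a type and less RNA per cell cannot be told apart.

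Promoter sequences are shown for the 3 genes in which the groups differed in opposite directions or which carry the motif of the pathway's own factor. RefSeq windows on GRCm38.p6, from 250 bases before to 50 after a gene start, were matched for 8 of the 10 genes, and Hes1 and Hey1 were not matched. The Notch1 and Rbpj windows lie at RefSeq starts far inside the GENCODE gene spans, whose outermost starts are farther upstream. The RefSeq starts of Notch2, Notch4, Jag1 and Jag2 also lie inside those spans, by much smaller distances. The 250 bases before the start are printed 5′ to 3′ on the gene's strand. In the Notch1 line (chr2:26503823-26504072, minus strand) and the Notch4 line (chr17:34564045-34564294, plus strand) capitals mark CG dinucleotides.
Notch1: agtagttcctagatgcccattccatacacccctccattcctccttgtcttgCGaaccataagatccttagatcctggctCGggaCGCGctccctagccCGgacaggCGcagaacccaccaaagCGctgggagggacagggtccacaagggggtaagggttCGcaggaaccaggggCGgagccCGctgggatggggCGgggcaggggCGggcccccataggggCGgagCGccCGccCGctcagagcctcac
Notch4: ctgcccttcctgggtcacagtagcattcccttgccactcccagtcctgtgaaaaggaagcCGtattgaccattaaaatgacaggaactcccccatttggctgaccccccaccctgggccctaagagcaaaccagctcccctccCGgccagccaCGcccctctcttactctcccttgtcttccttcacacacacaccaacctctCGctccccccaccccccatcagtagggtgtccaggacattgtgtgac
Over the full window Notch1 held 23 CG dinucleotides and Notch4 held 5, where the median of 32851 RefSeq promoter windows was 7 and the quartiles were 3 and 20. Notch4 was the only one of the 8 matched genes below that median, and the other 7 held between 21 and 63.

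In the upstream Rbpj window (chr5:53590096-53590345, plus strand) capitals mark the core motif recognised by RBPJ, TGGGAA, searched on both strands (TTCCCA on the other).
Rbpj: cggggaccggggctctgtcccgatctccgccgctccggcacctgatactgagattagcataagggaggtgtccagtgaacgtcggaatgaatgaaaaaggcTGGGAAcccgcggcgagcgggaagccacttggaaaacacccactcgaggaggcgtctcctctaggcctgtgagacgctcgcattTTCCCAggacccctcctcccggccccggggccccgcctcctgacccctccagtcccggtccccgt
The motif began 149 and 65 bases before this start, and the second of these matches also lay in the other Rbpj window, which overlaps the first. Rbpj was the only one of the 8 matched genes with TGGGAA in its window, and 25.6% of all RefSeq windows of this length hold it. The longer form GTGGGAA was in no window of the 8 genes and in 6.38% of all windows. A match describes letters in a window and is not evidence of binding.

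Among the receptors, Notch1 and Notch4 differed between the groups in opposite directions while Notch2 overlapped. Notch1, the receptor best known from T cell and epidermal development, reached 1224 and 1244 in the WT libraries against 2709.6 and 3029.9 in the EpiKO libraries. Both EpiKO libraries lay above both WT libraries, and the mean was 2.33 times higher. The log2 difference was 1.21 (SE 0.111, limma). Of the 8 Notch genes that passed the filter on low values, Notch1 alone was called in the fit over all genes (limma, Benjamini-Hochberg adjusted p under 0.05), where 0.947% of 12463 genes were called with 0.417% higher and 0.53% lower. Because the genes were proposed from this contrast, nothing is read from that count. The call was lost when any 1 library was left out and with limma without trend, while the log2 difference stayed between 1.13 and 1.30.

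Notch4, a receptor found mainly in endothelium, showed the reverse pattern. It stood at 129 and 158 in the 2 WT libraries, with 34.4 and 37.8 in EpiKO replicates 1 and 2. The groups did not overlap, the EpiKO mean was 3.97 times lower, and the log2 difference was -1.95 (SE 0.256, limma). Notch4 was not called in that fit, but was with a pseudocount of 5 (0.578% of all genes lower), without a filter (0.499%) and by DESeq2 on the reads (3.12%). From pooled reads, 299 over both WT and 72 over both EpiKO libraries, the WT over EpiKO ratio was 4.11 (exact binomial 95% interval 3.17 to 5.39, counting error only). Endothelial markers were measured beside it: the sum of 13 such genes was 416 and 280 in WT and 268 and 297 in EpiKO, with none at 0 in all libraries and 6 under 10 in each. Without overlap, 4 of the 13 were lower in EpiKO and 1 was higher, against 23.8% and 23.3% of all tested genes. The higher one, Cdh5, the endothelial cadherin, had WT values of 58.0 and 61.4, and EpiKO values of 76.4 and 85.1. Kdr, a receptor for vascular growth factor and 1 of the lower ones, was at 76.5 and 59.7 against 36.6 and 23.6. The other lower ones were under 10 in every library, so they are not among the tested genes that these shares cover. Tie1 and Vwf, also on the list, overlapped between the groups. Tie1 was at 90.4 and 69.8 in WT against 48.4 and 78.4 in EpiKO, and Vwf at 83.5 and 47.1 against 56.0 and 53.9. The part of endothelial RNA in the Notch4 difference was not tested.

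Notch2, the receptor that dendritic cell and monocyte subsets are known to need, reached 2140 and 2840.3 in the WT libraries against 2894 and 2236 in the EpiKO libraries. The ranges overlapped, and the log2 difference of 0.05 (SE 0.200, limma) was smaller than the gap between replicates of either group, 0.41 in WT and 0.37 in EpiKO on the same scale. Notch3, typical of vascular smooth muscle and pericytes, was near the limit of detection, at 14 and 6 reads in WT and 2 and 10 in EpiKO. Its ratio of WT over EpiKO reads was 1.65 (exact binomial 95% interval 0.767 to 3.70, counting error only), so a difference was not detectable at this depth. The 10 mural markers summed to 5438 and 7511 in the WT libraries against 1882 and 2717 in EpiKO, or without Cspg4 to 1620 and 1112 against 1191 and 2082. Of the list, Cspg4 was called lower in EpiKO (limma, 0.53% of all tested genes lower). Without overlap, 4 of the 10 were lower in EpiKO and 1 was higher, against 23.8% and 23.3% of all tested genes. In the list, 4 genes stayed under 10 in every library, Rgs5 and Myh11 among them, and none was at 0 in all. Such genes were not tested, and some are in the count without overlap, while the shares cover tested genes only. Acta2 overlapped, at 901 and 685 in WT against 596 and 1161 in EpiKO. Pdgfrb, the higher one, was at 243 and 186 in WT against 322 and 492 in EpiKO. The part of mural cell RNA in the Notch3 values was not tested.

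**Figure D1:**
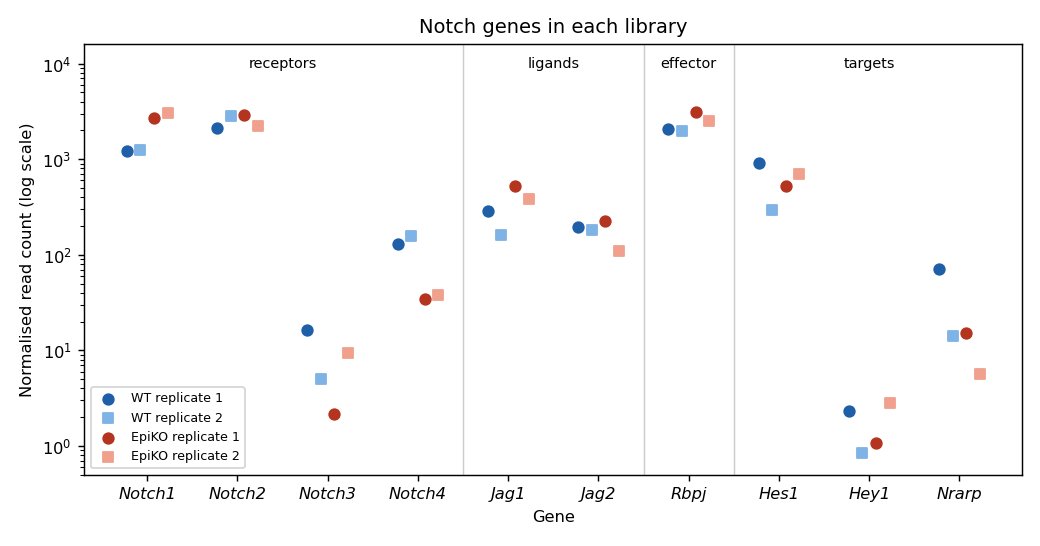
Normalised read count (log scale) of each of the 10 Notch genes, with 1 point per library, circles for replicate 1 and squares for replicate 2 of WT (blue) and EpiKO (red). The EpiKO points of Notch1, Jag1 and Rbpj lie above the WT points and those of Notch4 below them, while the other 6 genes overlap.

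The balance among receptors was compared per kilobase of annotated exon, which sets levels of different genes side by side only approximately. The union of exons was 14.2 kilobases for Notch1 and 10.8 for Notch2. It can exceed the expressed transcripts by unlike amounts, so ratios between genes, shares and sums depend on the lengths used. The fold change of the Notch2 to Notch1 ratio between libraries is free of that choice. Notch2 was the most abundant receptor in both WT libraries, at 198 and 263 per kilobase against 86.0 and 87.4 for Notch1. In EpiKO Notch2 was at 268 and 207 per kilobase and Notch1 at 190 and 213. The ratio of Notch2 to Notch1 was thus 2.31 and 3.01 in WT and 1.41 and 0.974 in EpiKO, without overlap. Notch1 made up 28.4% and 23.6% of the summed receptor level per kilobase in WT and 41.1% and 49.96% in EpiKO. The share of Notch4 was 5.28% in each WT library and 0.922% and 1.10% in EpiKO. Notch3 stayed under 1% in every library, at 0.663% or less. The summed receptor level was 302 and 371 per kilobase in WT and 463 and 426 in EpiKO. These ratios are formed within a library and do not depend on the size factor, but they use the same values that led to the choice of genes.

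**Figure D2:**
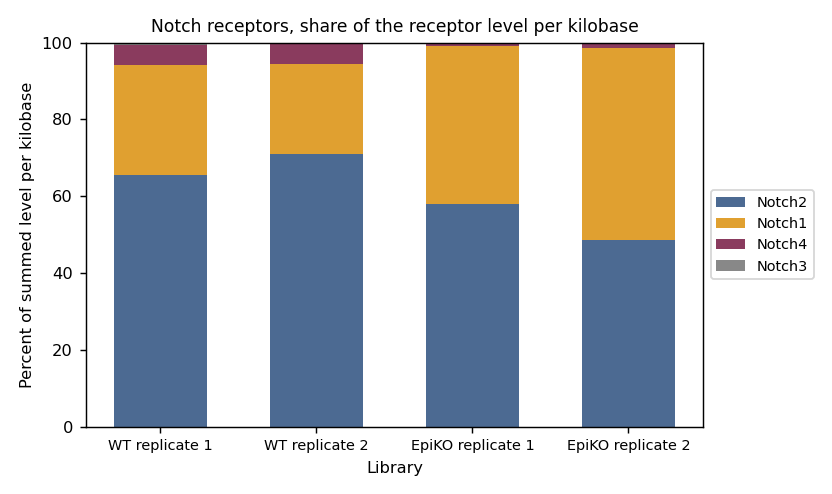
Share of each Notch receptor in the summed receptor level per kilobase of exon (percent), with 1 stacked bar per library. The Notch1 part is 23.6% to 28.4% in WT and 41.1% to 49.96% in EpiKO, and the Notch4 part is 5.28% in WT and 0.922% to 1.10% in EpiKO.

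The ligand genes did not share a pattern. Jag1, a Jagged ligand presented by many tissue and myeloid cells, stood at 289 and 161 in the 2 WT libraries, with 529 and 382 in EpiKO replicates 1 and 2. The groups did not overlap, although the WT libraries themselves differed by 1.80 times. The EpiKO mean was 2.03 times higher, with a log2 difference of 1.06 (SE 0.333, limma) that lay at 1.48 without WT replicate 1 and at 0.64 without WT replicate 2. Jag2, its close relative, had WT values of 195 and 182, and EpiKO values of 224 and 110. The highest and the lowest Jag2 value were both in EpiKO, and the log2 difference was -0.26 (SE 0.364, limma). It turned to 0.25 without EpiKO replicate 2. Per kilobase, the ratio of Jag1 to Jag2 was 1.77 and 1.06 in WT and 2.82 and 4.16 in EpiKO.

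Rbpj, the DNA-binding partner of all Notch receptors, reached 2056 and 1978 in the WT libraries against 3100.4 and 2507 in the EpiKO libraries. The EpiKO libraries lay above the WT libraries, with a mean 1.39 times higher and a log2 difference of 0.47 (SE 0.139, limma). Its level per kilobase, between 155 and 243, overlapped that of Notch2, between 198 and 268. Notch1, Jag1 and Rbpj were the genes with EpiKO above WT in every library and Notch4 the gene below, so the groups did not overlap in 4 of the 8 tested genes. Over all tested genes the groups did not overlap in 47.1%, with 23.3% higher and 23.8% lower in EpiKO, so the count is close to that background.

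None of the 3 target genes separated the groups. Hes1, a transcriptional repressor and the most widely used target of the pathway, stood at 911 and 292 in the 2 WT libraries, with 526 and 702 in EpiKO replicates 1 and 2. Both EpiKO values lay between the WT values, and the log2 difference was 0.24 (SE 0.549, limma). The WT libraries differed by 3.12 times, a log2 gap of 1.64 that 1.61% of tested genes reached or passed, where the median gap was 0.18. Nrarp, a small ankyrin repeat protein that dampens Notch signalling, had WT values of 70.7 and 14.3, and EpiKO values of 15.1 and 5.67. Its WT mean rested on WT replicate 1, since WT replicate 2 lay below EpiKO replicate 1. The log2 difference of -1.68 (SE 0.907, limma) was -0.56 without WT replicate 1 and -2.79 without WT replicate 2. Hey1, a repressor related to Hes1 and prominent in vessels, had 2 and 1 reads in WT and 1 and 3 in EpiKO, at or under the 3 reads taken as the floor in every library.

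WT replicate 1, the library with high keratinocyte markers, held the highest value of Hes1, Nrarp and Notch3. Krt14, the keratin of basal keratinocytes, was at 1907 in that library and between 8.61 and 28.6 in the other 3. Without WT replicate 1 the Hes1 difference was 1.06 on the log2 scale and without WT replicate 2 it was -0.58, so its direction depended on which WT library was kept. Notch1 and Notch4 moved little in the same exercise, to 1.20 and -2.10 without WT replicate 1. Both genes were nearly alike in the WT libraries, with Notch1 values differing by 1.02 times and Notch4 values by 1.23 times. That library also had the highest sum of 7 of the 11 marker lists: keratinocyte, endothelial, fibroblast, T and NK cell, B cell, mast cell and basophil, and dendritic. The T and NK cell entry rested on Cd4. Without it the sum was 53.3 in WT replicate 1, 53.8 in WT replicate 2, and 23.7 and 53.9 in EpiKO. Cd79b made 76.5 of the B cell sum of 82.3 in WT replicate 1. The part of RNA from keratinocytes and other cell types in the Hes1, Nrarp and Notch3 values was not tested.

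**Figure D3:**
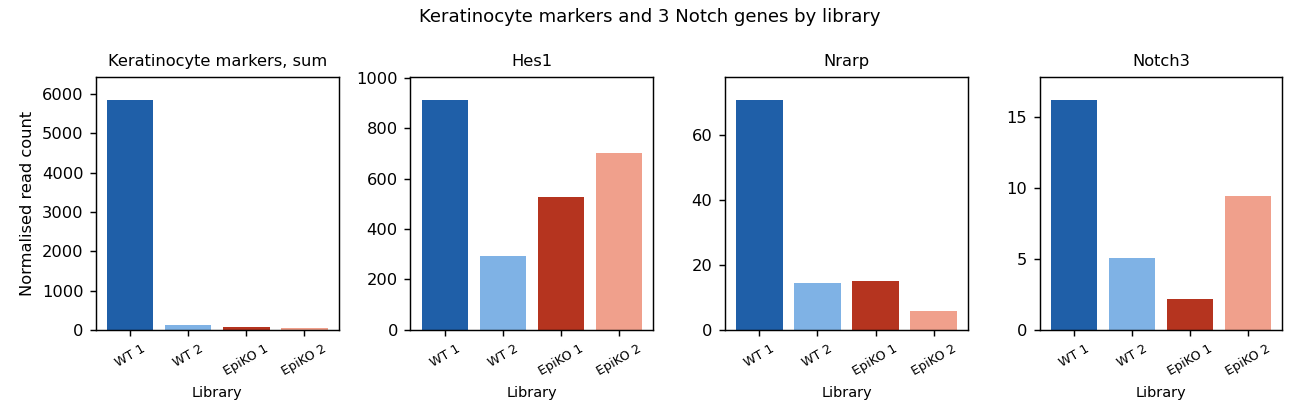
Normalised read count by library for the sum of 13 keratinocyte markers and for Hes1, Nrarp and Notch3, each on its own axis from 0. WT replicate 1 is the highest bar in all 4 panels, at 5845 for the marker sum, 911 for Hes1, 70.7 for Nrarp and 16.2 for Notch3.

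Ordered by mean level per kilobase over the 4 libraries, Hes1 came first at 298, followed by Notch2 at 234, Rbpj at 189 and Notch1 at 144. Jag1 followed at 58.3, Jag2 at 25.5, Notch4 at 11.1 and Nrarp at 10.2, and Notch3 and Hey1 came last at 1.02 and 0.541. Such an order depends on the exon lengths used. Ranges over libraries overlapped between every pair of neighbours in this order except Nrarp and Notch3. Within WT and within EpiKO taken alone, Notch1 also lay above Jag1, and Jag2 above Notch4, without overlap. In WT alone Notch2 lay above Rbpj and Rbpj above Notch1, and in EpiKO alone Jag1 lay above Jag2.

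The rest of the pathway was read from a list of 71 other genes grouped by role. Of these, 57 passed the filter and none was called in either direction (limma, Benjamini-Hochberg adjusted p under 0.05), against 0.947% of all tested genes. With so few called over all genes, a count of none is close to that background. An unadjusted p under 0.05 (limma) was reached by 10, or 17.5% against 15.6% of all tested genes. On the reads, edgeR called none, against 0.842% of all genes, and DESeq2 called 1 higher and 2 lower, against 3.73% and 3.12% of all genes by DESeq2. The median log2 difference of the 57 was -0.02, and -0.0021 over all 12463 tested genes. The groups did not overlap in 49.1% of the 57 and in 47.1% of all tested genes.

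The other ligands were almost silent. Dll1 had 7 and 3 reads in WT and 6 and 1 in EpiKO, and Dll4 (not covered by the rule for names, and picked with its values in view) had 7 and 4 against 1 and 3. Only Dner, a transmembrane protein with EGF repeats described as a Notch ligand in neurons, passed the filter. It reached 105 and 103 in the WT libraries against 37.7 and 17.0 in the EpiKO libraries, a log2 difference of -2.00 (SE 0.435, adjusted p = 0.119 by limma). Both EpiKO libraries were below both WT libraries, and this was 1 of the genes DESeq2 called lower (adjusted p = 0.00767, where all alternatives ran from that value to 0.395).

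Among 7 glycosyltransferases that modify the EGF repeats of the receptors, Lfng had the smallest p. This fringe enzyme, which alters how receptors respond to Jagged and Delta-like ligands, stood at 3529 and 3121 in the 2 WT libraries, with 1992 and 1979 in EpiKO replicates 1 and 2. The EpiKO mean was 1.67 times lower without overlap, and the log2 difference of -0.74 (SE 0.114) did not pass (adjusted p = 0.0639 by limma). DESeq2 called it lower (adjusted p = 0.000184, the lowest of the alternatives, which reached 0.234). Gxylt1, a xylosyltransferase, had a log2 difference of 0.02 (SE 0.107, limma).

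None of 10 receptor proteolysis genes was called (limma, against 0.947% of all tested genes), with log2 differences from -0.40 to 0.32. Furin, which cleaves receptors on their way to the surface, had WT values of 9618 and 8837, and EpiKO values of 9496 and 7816. Adam10, the main protease of ligand-bound receptors, reached 4741 and 6022 in the WT libraries against 7746 and 5749 in the EpiKO libraries, with overlap. The 4 genes of ligand endocytosis included Mib1 and Mib2, ubiquitin ligases that act on ligands, with log2 differences of 0.14 (SE 0.120) and 0.16 (SE 0.133, limma).

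Of 9 tested genes of receptor turnover, Nedd4, a ubiquitin ligase, stood at 1660 and 1014 in the 2 WT libraries, with 2059 and 3041 in EpiKO replicates 1 and 2. Its log2 difference was 0.95 (SE 0.304, adjusted p = 0.240 by limma), and DESeq2 called it higher (adjusted p = 0.0413, again the lowest, with 0.530 the highest). Itch, a ligase of the same family, had a log2 difference of 0.25 (SE 0.112, limma). The coactivators and corepressors that share RBPJ gave no call among 8 and 13 genes (limma, against 0.947% of all tested genes). The acetyltransferase gene Ep300 had a log2 difference of 0.0096 (SE 0.240, limma), and Snw1, which bridges RBPJ complexes, one of -0.16 (SE 0.105, limma). Ctbp1, a corepressor, had a log2 difference of -0.13 (SE 0.108, limma).

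Of 13 other target genes 5 passed the filter and none was called (limma, against 0.947% of all tested genes). Ccnd1, the gene of cyclin D1, had WT values of 4219 and 6527, and EpiKO values of 4951 and 4163. Cdkn1a, the gene of the cell cycle inhibitor p21, reached 8039 and 5825 in the WT libraries against 8991 and 4776 in the EpiKO libraries. Hes2, Hes3, Hes5 and Ptcra, named after their values were seen, had no read in any library, which allows a value of up to 2.52 to 3.48 per library by counting error alone.

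**Figure D4:**
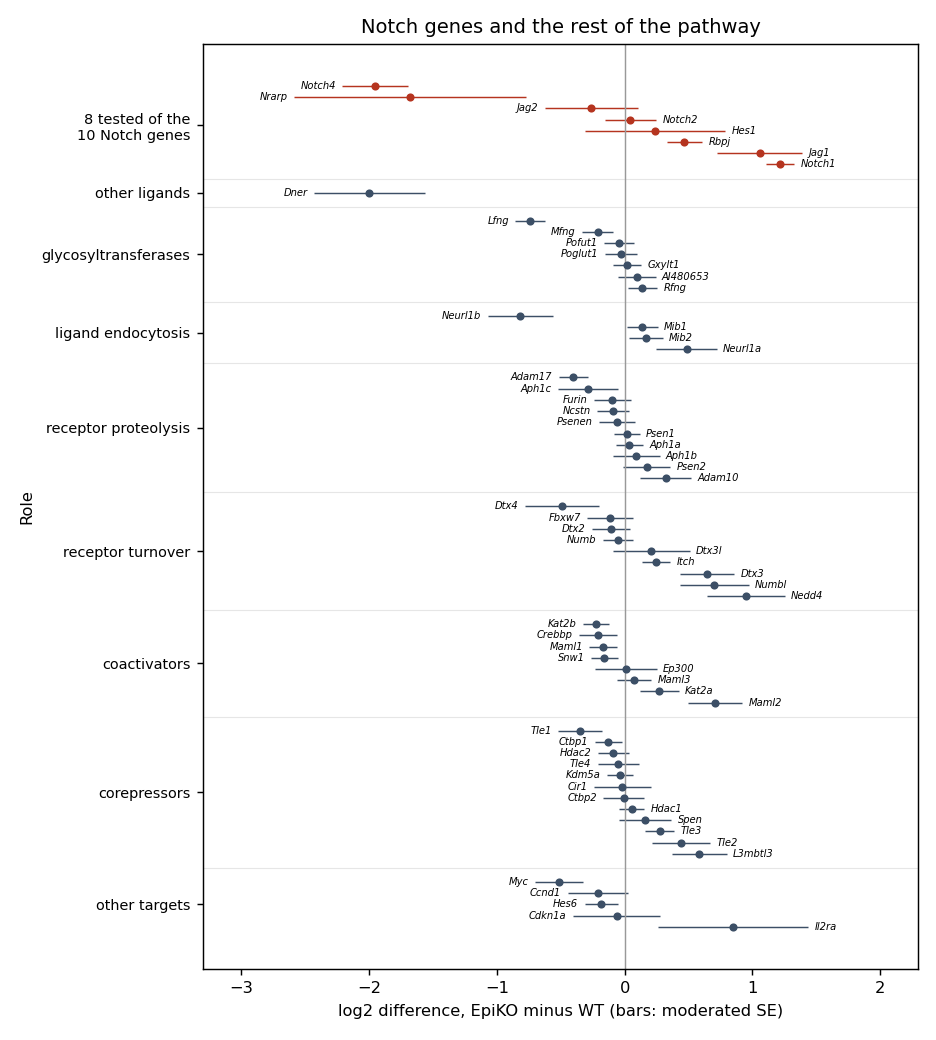
Difference between EpiKO and WT means on the log2(value + 1) scale for 8 of the 10 Notch genes (red) and other tested pathway genes (blue), grouped by role, with moderated standard errors from 2 libraries per group as bars. Notch1 at 1.21 and Jag1 at 1.06 are the highest of the red points, and Dner at -2.00 and Notch4 at -1.95 the lowest of all points.

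The genes lie on several chromosomes of mm10 (GENCODE M21). Notch1 is on chromosome 2 from 26457903 to 26516663 (minus strand), Nrarp on the same chromosome from 25180758 to 25183339 (plus strand), and Jag1 there from 137081456 to 137116644 (minus strand). Notch3 and Notch4 are both on chromosome 17, from 32120820 to 32166852 (minus strand) and from 34564268 to 34588503 (plus strand). Notch2 is on chromosome 3 from 98013527 to 98150361 (plus strand), and Hey1 there from 8663359 to 8667256 (minus strand). Rbpj is on chromosome 5 from 53466152 to 53657362 (plus strand), Jag2 on chromosome 12 from 112907819 to 112929776 (minus strand), and Hes1 on chromosome 16 from 30064384 to 30067796 (plus strand). Exons of Notch1, Notch3 and Nrarp overlap exons of a gene on the other strand, and those of Notch2 overlap a gene on the same strand. Without strand in the counting, reads from the overlaps on opposite strands cannot be separated. For Notch2 and its neighbour on the same strand, knowing the strand would not separate them either. The values of these genes carry that uncertainty, while Notch4, Jag1, Jag2, Rbpj, Hes1 and Hey1 share no exon sequence with another annotated gene.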

How the data were processed

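The members and gene lists were chosen with earlier results of these data known. Per the submitters' processing notes, the software comprised STAR 2.5.2b, featureCounts 1.5.0-p3, bcl2fastq 2.17 and DESeq2, listed with no order, and the build was mm10. For the annotation, the strand setting and multiply aligned reads, the choice is not given in the sources used here. As deposited by the authors, the table holds a signal, namely reads over 1 size factor per library: 100% of values were whole multiples of 1 read (tolerance 1e-06), which gave back the reads.

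Genes that reached a value of 10 in 2 or more libraries were tested with limma 3.58.1 (R 4.3.3, trend, robust, no covariate) on log2(value + 1), which understates changes of low genes. All tests were two-sided, with Benjamini-Hochberg adjustment over 12463 genes and a threshold of 0.05. An exact permutation test of 2 against 2 cannot give a p below 0.333. Replicate numbers were given here by accession order and pair nothing. No label ties replicates to separate animals, so the p-values cover only the spread among these 4 libraries, possibly technical. Standard errors are moderated. Differences of the 10 Notch genes were read from this fit, 8 of them tested. On the recovered reads, edgeR 4.0.16 called 105 genes and DESeq2 1.42.0 called 854. Levels per kilobase used the union of GENCODE M21 exons, an upper bound on transcript length.

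Named genes were all 10, plus, in each role of the other list, called genes and the 2 with the highest mean, and up to 3 per marker list. The values of 1 gene that this rule names are not reported here. Kdr, Rgs5, Myh11, Cd200 and Cd200r1, outside this rule, were picked with their values in view. Of the listed genes, Xxylt1 was found as AI480653 and Adgre1 as Emr1, and Ly6g was not found. Further alternatives were equal library totals, leaving out each library, a filter at 50 or none, and a pseudocount of 0.5 or 5. Limma without trend was added after seeing the data. Binomial intervals cover counting error only.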

Additional observations from a re-analysis of the deposited data

How the results depend on the processing

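Over all genes, 52 were called higher and 66 lower in EpiKO. DESeq2 gave 465 and 389, limma without trend gave 13 and 18, and leaving out 1 library gave 0 to 2 higher and 0 to 4 lower. Of the 10 Notch genes, Notch1 alone was called higher and 0 lower. The count of higher calls was 0 with limma without trend and 0 when any 1 library was left out, where a group's lone library was taken to vary as the intact group does. The count of lower calls was 1, Notch4, with a pseudocount of 5, without a filter and by DESeq2. Of the other pathway genes, none was called, and DESeq2 called 1 higher and 2 lower. The Notch1 log2 difference lay between 1.13 and 1.30 when 1 library was left out, and the Notch4 difference between -2.10 and -1.81. Over the same fits Notch2 ran from -0.16 to 0.25, Jag2 from -0.77 to 0.25 and Hes1 from -0.58 to 1.06, so each changed sign. Rbpj stayed between 0.31 and 0.62 and Jag1 between 0.64 and 1.48. Genes near no difference also changed sign. Ep300 was at -0.0188 with equal library totals, -0.0316 by edgeR, -0.0306 by DESeq2, and between -0.33 and 0.35 with 1 library left out. Gxylt1 was at -0.0079 with equal library totals and between -0.039 and 0.080 with 1 library left out. Furin then ran from -0.24 to 0.043, Cdkn1a from -0.52 to 0.39 and Ccnd1 from -0.52 to 0.11. For every change above that comes from another tool or setting, the cause was not tested. Equal library totals moved the median log2 difference of all genes from -0.0021 to -0.03. Notch3 and Hey1 were too low to test, so depth limits what can be said of them. No paired analysis was possible because the labels give no replicate numbers, and those used here only name the libraries.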
